A study of Caenorhabditis elegans with 2 samples.

Results

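ZFP-3 is a zinc finger protein of Caenorhabditis elegans, and 204 of the 2010 sites in the authors' conservative list of its binding sites lay at transfer RNA (tRNA) genes. A site was counted when its summit, the position of strongest enrichment, fell inside a tRNA gene of the Ensembl annotation or at most 100 bp from it. The 204 peaks touched 215 of the 612 annotated nuclear tRNA genes, or 35.1% (exact 95% interval 31.3 to 39.1%). Within the conservative list, the signal, the stage and the animals played no part in choosing the 204 peaks. The list itself had been thresholded on a score from the same libraries. The animals were whole L4 larvae of strain RW12271, aged 48 h, whose zfp-3 gene, at its own place on X, had been tagged with TY1, EGFP and 3xFLAG by CRISPR. They had been synchronised by bleaching and starvation as L1 larvae. An antibody against GFP was used on chromatin sonicated to 200 to 800 bp. There was 1 group of 2 biological replicates and no second condition, and the possible control experiment that the labels name was not analysed here. Whether peaks at tRNA genes occur in a control strain could therefore not be examined. The values are peaks on the ce11 build, with a signal of unstated scale, and signals are therefore set side by side only within a list. Whole animals were used, so the cells in which a site was occupied are unknown.

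tRNA genes are transcribed by RNA polymerase III, and their promoter lies inside the gene. The factor TFIIIC recognises 2 short elements of the gene body, the A box near the 5′ end and the B box further in, and places TFIIIB just upstream, which recruits the polymerase. Transcription ends at a run of T after the gene. In C. elegans many tRNA genes lie singly in introns or between genes, and X carries a large number of them.

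The gene bodies below show these elements at sites with strong peaks, and at 2 genes without one. Capitals mark the A box (searched as TNGNNNAG) and the B box (searched as GTTCNANNC). All are read 5′ to 3′ along the gene from the RefSeq genome of the WBcel235 assembly, which has the same chromosomes as ce11. The first 6 had a peak. The last 2 had none in the conservative list, and F46G11.t1 has the same body as F46G11.t2.
T03E6.t1, Gln, chrV:16592237-16592308, minus strand: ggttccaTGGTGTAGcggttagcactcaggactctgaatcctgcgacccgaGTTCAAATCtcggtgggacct
F15G9.t1, Ala, chrX:9743589-9743660, plus strand: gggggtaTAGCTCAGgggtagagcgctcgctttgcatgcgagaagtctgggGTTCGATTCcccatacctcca
C33G3.t2, Lys, chrX:14063946-14064018, minus strand: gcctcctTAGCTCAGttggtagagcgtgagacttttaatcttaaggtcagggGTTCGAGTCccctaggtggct
F57F5.t1, Ile, chrV:12002176-12002260, plus strand: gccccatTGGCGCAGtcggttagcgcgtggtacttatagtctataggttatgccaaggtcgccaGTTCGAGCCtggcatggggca
R11.t1, Tyr, chrX:16209769-16209852, minus strand: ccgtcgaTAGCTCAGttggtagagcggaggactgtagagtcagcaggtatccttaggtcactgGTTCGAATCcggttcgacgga
F46G11.t2, Pro, chrX:5801211-5801282, minus strand: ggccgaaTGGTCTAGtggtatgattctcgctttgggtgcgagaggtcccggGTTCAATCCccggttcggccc
F46G11.t1, Pro, chrX:5801472-5801543, plus strand: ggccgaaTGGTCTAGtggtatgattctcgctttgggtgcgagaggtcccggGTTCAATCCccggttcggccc
F28H6.t2, His, chrX:14135045-14135116, plus strand: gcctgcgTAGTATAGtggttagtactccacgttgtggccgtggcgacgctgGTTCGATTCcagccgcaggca
The A box began at base 8 of each of these genes. The B box began at base 52 in the genes of 72 bases, at base 53 in C33G3.t2, and at base 65 in F57F5.t1 and 64 in R11.t1, which carry an intron between the boxes.

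The peaks at tRNA genes were of middling strength, and nearly all had the width most common in the whole list. Of the 204 peaks, 203 had this width of 336 bp, against 1579 of the 1806 other peaks (87.4%). Their signal had a median of 91.4 (quartiles 76.6 and 107.8) against 81.0 (quartiles 65.4 and 113) for the other peaks. The median percentile of signal was 59.9 in this list. It was 51.6 in the second series list, 43.5 in the thresholded list of replicate 1 and 45.7 in that of replicate 2, so that in the single libraries the tRNA peaks stood below the middle. The spread in the conservative list was smaller, with a coefficient of variation of 32.4% against 73.8%. The middle 50% of the whole list by signal held 66.7% of the tRNA peaks, against 48.1% of the other peaks. The weakest 25% held 11.3% of the tRNA peaks, against 26.5% of the other peaks. At the strong end, none of the 20 strongest peaks of the list lay at a tRNA gene, 2 of the 100 strongest did, and 44 of the 500 strongest did. The 1005 strongest held 133 peaks at tRNA genes, and the whole list of 2010 held 204. The distribution of signal shows a steep rise for the tRNA peaks between their quartiles and a longer tail on both sides for the others.

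**Figure D1:**
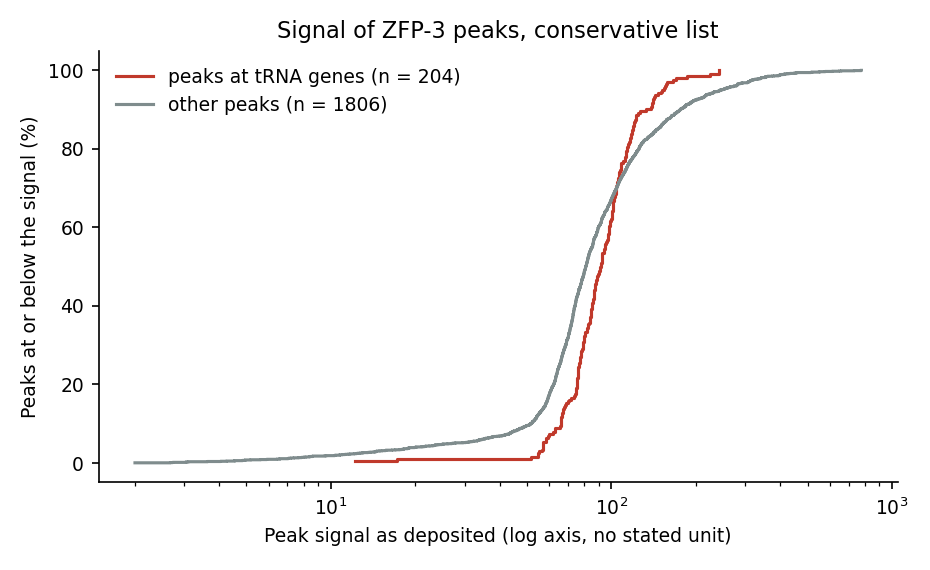
Share of peaks at or below each signal (percent, y) against the signal as deposited (x, log axis), for the 204 peaks at tRNA genes and the 1806 other peaks of the conservative list. The curve of the tRNA peaks is steeper, with a median of 91.4 against 81.0, and ends at 241, while the other peaks reach 778.

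The strongest site lay at M02F4.t1, a gene for a tRNA that carries glycine, between genes on X (peak 3035985 to 3036320). Its signal was 241 in the conservative list, rank 97 of all peaks, and it was 134 in the ranked list of replicate 1 and 109 in that of replicate 2. The summit lay 11 bp upstream of the gene. T03E6.t1, a glutamine tRNA gene on V (peak 16592219 to 16592460), had a signal that rounds to the same 241, with 137 in replicate 1 and 118 in replicate 2. Its summit lay 78 bp upstream of the gene, within a promoter window as defined further on. F15G9.t1, an alanine tRNA gene in an intron of him-4, which encodes the extracellular matrix protein hemicentin, had 225, with 114 in replicate 1 and 115 in replicate 2. That summit lay 96 bp from its 5′ end, between it and F15G9.t2, a second alanine tRNA gene 86 bp further on.

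Next came 3 lysine tRNA genes. M01E5.t1 on I had a signal of 186 (94.8 in replicate 1 and 79.9 in replicate 2) with a summit 5 bp into the gene. T23F1.t1 on V had 170 (72.3 in replicate 1 and 106 in replicate 2), with the proline tRNA gene T23F1.t2 facing it at a gap of 66 bp. C33G3.t2 on X had 166 (85.9 in replicate 1 and 84.9 in replicate 2). These 6 sites were high in both libraries, and which replicate gave the larger value differed between them.

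The other 14 of the 20 strongest peaks had signals from 138 to 158. On X they were the asparagine gene F41D9.t3 in an intron of sulp-3, a sulphate permease family gene (158), the proline gene F46G11.t2 (157), the isoleucine gene C42D8.t1 (156), and the glutamate gene C28G1.t1, which overlaps an exon of C28G1.2 (154). The glycine gene T10B10.t2 (152), the valine gene R04D3.t2 (143), the tyrosine gene R11.t1 (140) and the glutamine gene R04A9.t1 in an intron of ZK1193.2 (138) completed those on X. On III the proline gene W09D6.t2 lay in an intron of rsa-2, which acts in spindle assembly (150), and on V the isoleucine gene F57F5.t1 had 141. On I the glycine gene C12C8.t6 lay in an intron of uggt-2 (146), the serine gene K07A1.t1 between genes (142), the glycine gene T22A3.t1 in an intron of set-18 (140) and the arginine gene F47G6.t1 in an intron of spe-15, a myosin gene needed for sperm formation (139). All 20 overlapped a thresholded peak of both replicates, 11 lay on X, 7 lay in introns, and 12 amino acids were represented. The overlap of other peaks of like signal was not computed.

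At the weak end, 2 peaks stood well below the rest, at C12C8.t1 (12.2) and at F47G6.t1 (17.1), and the third lowest was C11E4.t1 (51.6). The 2 lowest overlapped a stronger peak of the same list at the same place (146 at C12C8.t6 and 139 at F47G6.t1). The 204 peaks therefore formed 202 separate intervals. At C12C8.t6 and C12C8.t1, a divergent pair of glycine genes, the ranked list of replicate 1 had its summit by C12C8.t6 (84.9) and that of replicate 2 by C12C8.t1 (67.4).

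Agreement between the replicates was partial and differed with signal. The thresholded list of replicate 1 alone had 77 peaks at 83 tRNA genes (13.6%), and that of replicate 2 alone had 113 peaks at 119 genes (19.4%). Of the 204 tRNA peaks, 75 (36.8%) overlapped a thresholded peak of replicate 1, where the share over all 2010 peaks was 40.2%. For replicate 2 the count was 99 (48.5%), with 41.1% over all peaks. Both lists held 53 of them, or 26% (exact interval 20.1 to 32.6%), against 27.0% of all peaks, so the share in both was near that of the whole list. A further 22 were in the list of replicate 1 and not of replicate 2, 46 the other way round, and 83 (40.7%) in neither. Over all 2010 peaks these counts were 265, 284 and 918 (45.7%). Among the 102 strongest tRNA peaks 51 were in both lists, and among the 102 weakest 2 were. The same split was not made for the other peaks, so this is not shown to be particular to tRNA genes.

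Before thresholding, most sites of the conservative list, at tRNA genes and elsewhere, were present in each library. The longer ranked lists had a summit within 100 bp for 200 of the 204 in replicate 1 (98.0%) and for 195 in replicate 2 (95.6%). Over all 2010 peaks the shares were 89.2% in replicate 1 and 88.8% in replicate 2. In the ranked lists the tRNA sites stood at a median percentile of 97.5 in replicate 1 and 98.0 in replicate 2. The choice of a thresholded list fixes such high percentiles in large part, and those of other peaks were not computed. The median signal of the tRNA sites was 45.0 in replicate 1, against 45.3 for other peaks. In replicate 2 it was 45.7, against 41.6. Over the 192 found in both, the median signal ratio of replicate 2 over replicate 1 was 0.02 on the log2 scale (SD 0.45), against -0.14 (SD 0.45) over 1467 other peaks. The signal was higher in replicate 2 at 99 of these 192 tRNA peaks (51.6%), against 561 of 1467 other peaks (38.2%). Across the 192 sites, as a description, Spearman's rho between the replicates was 0.351, against 0.587 for the other peaks, which span a wider range of signal. These points come from the same 2 libraries, and the conservative list was itself chosen for agreement.

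**Figure D2:**
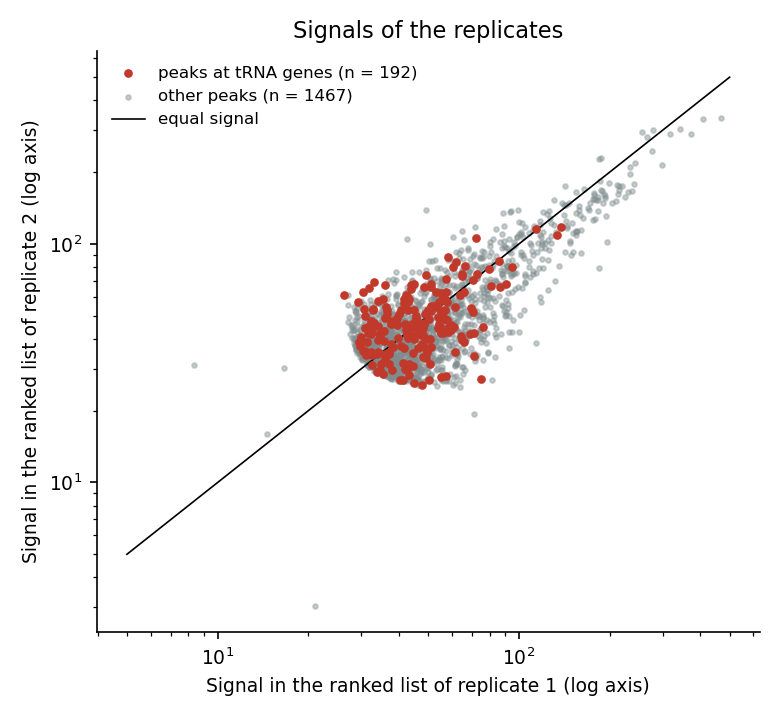
Signal in the ranked list of replicate 1 (x, log axis) against replicate 2 (y, log axis) for 192 peaks at tRNA genes and 1467 other peaks, with the line of equal signal. The tRNA peaks form a compact group around the line (median log2 ratio 0.02) and lack the high values reached by other peaks.

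The widest gaps between the libraries ran both ways. K03B8.t1, a valine gene on V, had 74.9 in replicate 1 and 27.1 in replicate 2, a log2 ratio of -1.47. The leucine gene W02H3.t1 (-1.07) and the isoleucine gene C26G2.t1 (-1.04) followed. In the other direction the glycine gene K09C8.t1 had 26.3 in replicate 1 and 60.8 in replicate 2 (1.21), ahead of the aspartate gene Y54G2A.t5 (1.07) and the leucine gene C04E7.t1 (1.04). Each of these 6 peaks passed the threshold in the list of its higher replicate and not in the other.

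Summits lay over the gene body. At 122 of the 204 peaks (59.8%) the summit was inside the tRNA gene, at 54 (26.5%) upstream of it and at 28 (13.7%) downstream. The median position was 22 bp into the gene (quartiles at -2.25 and 49.75 bp), which is between the A box and the B box of a gene of 72 bases. It was 28 bp for the 97 peaks whose gene is on the plus strand and 20 bp for the 107 on the minus strand. Positions 0 to 59 held 109 summits.

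**Figure D3:**
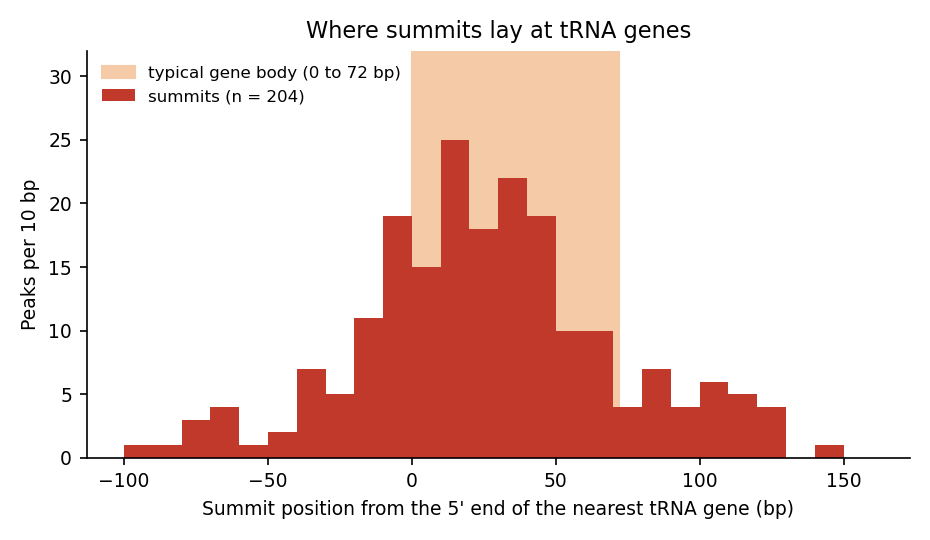
Number of summits per 10 bp (y) by position from the 5′ end of the nearest tRNA gene (x, bp, in the direction of transcription) for the 204 peaks at tRNA genes; the shaded band is a gene of 72 bp. Most summits lie over the band, 54 lie upstream of the gene and 28 downstream.

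The limit of 100 bp fell in a sparse region. Within 50 bp of a gene lay 189 summits, between 51 and 100 bp 15, and between 101 and 1000 bp a further 14. Just inside the limit were F22F1.t9 (91 bp, signal 77.2), the stronger of the F47G6.t1 peaks (90 bp, 139) and T03E6.t1 (78 bp, 241). Just outside were F33G12.t1 (138 bp, signal 12.5), F28F5.t1 (147 bp, 62.1) and F22B7.t3 (150 bp, 55.9). At M02F4.t1 the divergent glutamate gene M02F4.t2, named after its values were seen, lay beyond the limit and was not counted.

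For 3 of the strongest sites, where the summit lay outside the gene body, the 41 bases centred on the summit are given on the plus strand, with the summit base in capitals.
M02F4.t1, chrX:3036133-3036173, plus strand: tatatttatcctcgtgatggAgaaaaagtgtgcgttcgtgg
T03E6.t1, chrV:16592366-16592406, plus strand: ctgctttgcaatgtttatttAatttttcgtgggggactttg
F15G9.t1, chrX:9743665-9743705, plus strand: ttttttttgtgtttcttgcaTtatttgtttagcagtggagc
The stretch at F15G9.t1 starts with the run of T that follows that gene, and 31.7% of its bases were G or C, against 41.5% at M02F4.t1.

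Nearly all tRNA genes held a B box, with or without a peak, and since the summits were chosen for being at tRNA genes, the share of summits near a B box is a description that the choice fixes in large part. Within 101 bp centred on the summit, on either strand, the B box letters were found at 114 of the 204 tRNA peaks (55.9%), against 92 of 1806 other peaks (5.09%) and 3.53% of genome windows of that length. The looser A box letters were found at 75% of tRNA peaks, against 45.5% of other peaks and 43.2% of genome windows. Among genes, the B box letters were found in 96.7% of those with a peak and 95.5% of those without. Of genome windows of 72 bp, 1.23% had them on a given strand. The A box letters were found in 86.0% of genes with a peak and 82.6% of genes without (18.1% of such windows). The search took a match anywhere in the gene, which in some genes began at base 16. A gene without a match is thus not shown to lack an A box. A run of at least 4 T followed within 30 bp in 99.5% of genes with a peak and 98.5% of genes without, against 36.1% of genome windows of 30 bp. Genes with a tRNA intron had a peak in 12 of 29 cases (41.4%) and genes without one in 203 of 583 (34.8%).

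Genes for all 20 standard amino acids were among those with a peak, at shares that varied from 51.6 to 14.3%. Amino acids were taken from RefSeq, which gave one for 606 of the 612 genes, and the anticodon read from the gene sequence matched it for 595. Valine genes had the highest share, with 16 of 31 (51.6%, exact interval 33.1 to 69.8%), followed by glutamate with 20 of 41 (48.8%), aspartate with 13 of 27 (48.1%) and cysteine with 6 of 13 (46.2%). Glycine, the largest class, had 23 of 55 (41.8%), and lysine 17 of 46 (37.0%). The lowest shares were those of phenylalanine with 2 of 14 (14.3%, exact interval 1.8 to 42.8%), histidine with 3 of 20 (15.0%), tryptophan with 2 of 12 (16.7%) and asparagine with 4 of 20 (20%). Glutamine had 6 of 27 (22.2%) and proline 10 of 42 (23.8%). The intervals of the highest and the lowest class overlap. Neither the selenocysteine gene nor the 5 genes with no amino acid in RefSeq had a peak.

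The order of the classes did not hold in the single libraries. Valine genes had a peak in 6 of 31 cases (19.4%) in replicate 1 and in 5 of 31 (16.1%) in replicate 2, where all tRNA genes stood at 13.6% in replicate 1 and 19.4% in replicate 2. Phenylalanine genes had 0 of 14 in replicate 1 (exact upper limit 23.2%) and 4 of 14 in replicate 2 (28.6%), which is among the higher shares there. Over the 20 amino acids, Spearman's rho between the shares in the list of replicate 1 and that of replicate 2 was 0.477, as a description of classes that share their libraries. Histidine genes had no peak in either list (0 of 20, exact upper limit 16.8%). Glutamate genes read 19.5% in replicate 1 and 31.7% in replicate 2. Within glutamate, genes with the anticodon TTC had a peak in 11 of 17 cases (64.7%) and those with CTC in 9 of 24 (37.5%), a contrast named after its values were seen.

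**Figure D4:**
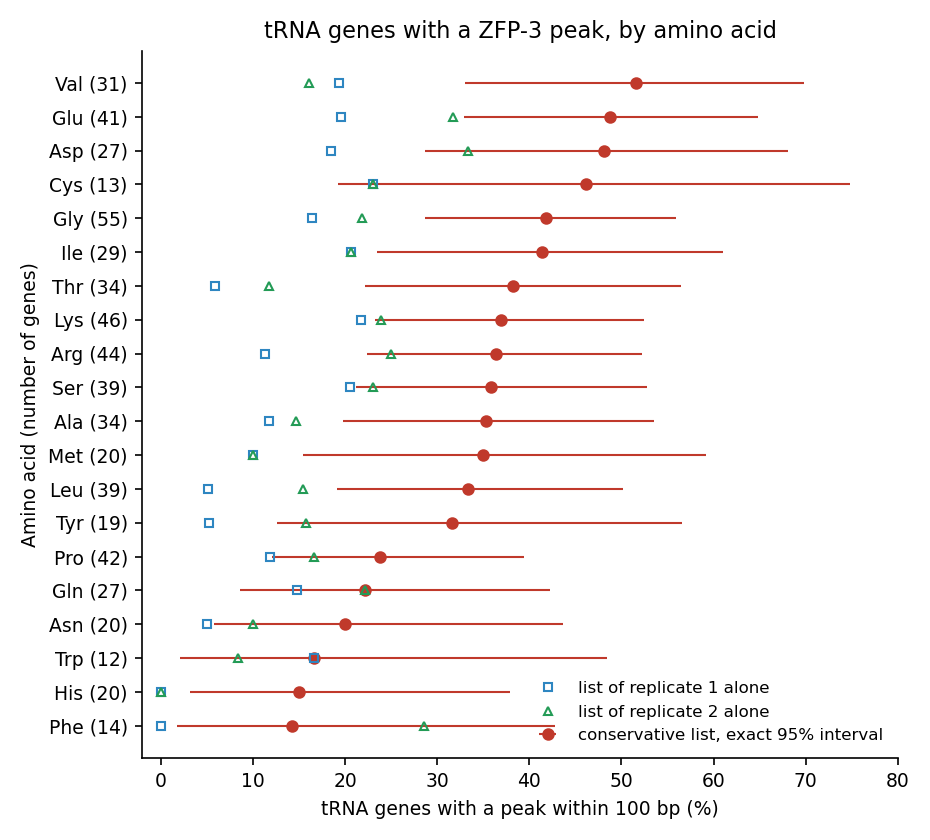
Percent of tRNA genes with a peak within 100 bp (x) for each amino acid (y, with the number of genes), in the conservative list with exact 95% intervals (circles) and in the lists of replicate 1 (squares) and replicate 2 (triangles) alone. In the conservative list shares fall from 51.6% for valine to 14.3% for phenylalanine with wide overlapping intervals, and the single lists do not keep that order.

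Signal differed less between the amino acids than the share of genes did. Median signals ran from 76.1 for the 12 threonine peaks and 78.9 for the 15 valine peaks to 112 for the 6 glutamine peaks. The strongest peaks of the classes not yet named were at C35E7.t1 for aspartate (127, in an intron of C35E7.9), F49C5.t3 for leucine (121, in an intron of nimk-1) and T15B12.t1 for methionine (119, in an intron of T15B12.1). Tryptophan had B0523.t1 (117, in an intron of fli-1), threonine C16C8.t2 (108, between genes) and cysteine K01A12.t4 (103.5, in an intron of K01A12.3). Phenylalanine had T28B4.t1 (85.3, in an intron of fbxl-4) and histidine C06G1.t1 (80.1, in an intron of C06G1.1). The first 3 of these 8 peaks were in the thresholded lists of both replicates, and the other 5 were not.

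Genes with the same sequence were often split between those with a peak and those without. How short reads were placed among identical copies is not known here. The 612 genes have 200 distinct sequences, and 57 of these are shared by 2 or more genes. In 44 of the 57 groups some copies had a peak and others did not, in 11 none had one and in 2 all did. The 20 groups of 10 or more copies were all mixed, with shares from 10 to 66.7%. A peak was present at 25.9% of genes with a sequence of their own, 34.9% of those with 2 to 9 copies and 39.4% of those with 10 or more. The largest group, 29 glycine genes with the anticodon TCC, had a peak at 14, with signals from 12.2 to 241. The next, 25 lysine genes with CTT, had a peak at 11 (66.1 to 186), and 24 proline genes with TGG at 7 (56.8 to 157). The proline genes include F46G11.t2 and F46G11.t1 on X, printed above, which share every base of the gene body and lie 189 bp apart. The peak summit lay 11 bp from the 5′ end of F46G11.t2 and 179 bp from F46G11.t1. With chromatin sonicated to 200 to 800 bp, these data cannot show that F46G11.t1 was unoccupied.

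Genes inside introns and genes between protein-coding genes had a peak at similar rates. Of the tRNA peaks, 92 (45.1%) were at genes in introns, 108 (52.9%) at genes between protein-coding genes and 4 at genes overlapping an exon. All tRNA genes divide in a like way, with 46.2% in introns and 52.1% between genes. Among the other peaks 21.5% of summits lay in introns, 52.4% between genes and 26.1% in exons. A peak was present at 94 of 283 intronic genes (33.2%) and at 117 of 319 intergenic genes (36.7%). Genes transcribed in the direction of their host had one in 50 of 161 cases (31.1%), and genes against it in 44 of 122 (36.1%). The median signal was 86.8 at peaks on genes along the host and 98.9 at those against it. The 92 intronic peaks were spread over 88 host genes. On the plus strand 34.6% of tRNA genes had a peak, and on the minus strand 35.7%.

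Fewer of these summits than of other summits lay in promoter windows of protein-coding genes, taken as 1000 bp upstream to 200 bp downstream of the 5′ end. The count was 45 of 204 (22.1%), against 719 of 1806 other peaks (39.8%) and 38.0% of all peaks. Among tRNA genes the contrast ran the other way. Counted on either side, 38.1% of those with a peak lay within 1000 bp of a protein-coding 5′ end, against 25.9% of those without. Signals at tRNA peaks inside and outside such windows had medians of 92.0 and 91.1.

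X held 106 of the 204 tRNA peaks (52.0%), against 14.2% of the other peaks, and 45.1% of all tRNA genes are on X. Per gene, 110 of 276 on X had a peak (39.9%, exact interval 34.0 to 45.9%), against 105 of 336 on the autosomes (31.3%, exact interval 26.3 to 36.5%). The intervals overlap. Among the autosomes the shares were 42.1% on II, 36.4% on I, 34.4% on III, 26.8% on IV and 20.5% on V, so that X did not stand above each of them. The share on X was higher than that on the autosomes in the list of replicate 1 (14.9 and 12.5%), in that of replicate 2 (23.6 and 16.1%) and in the second series list (31.5 and 26.5%). The last list shares both libraries with the conservative one. Median signal was 88.7 at the X peaks and 91.8 at the autosomal peaks. On X 35 of 106 tRNA peaks (33%) were at intronic genes, against 57 of 98 (58.2%) on the autosomes. This follows where the genes lie, since 95 of all 276 tRNA genes on X and 188 of all 336 on the autosomes are intronic.

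**Figure D5:**
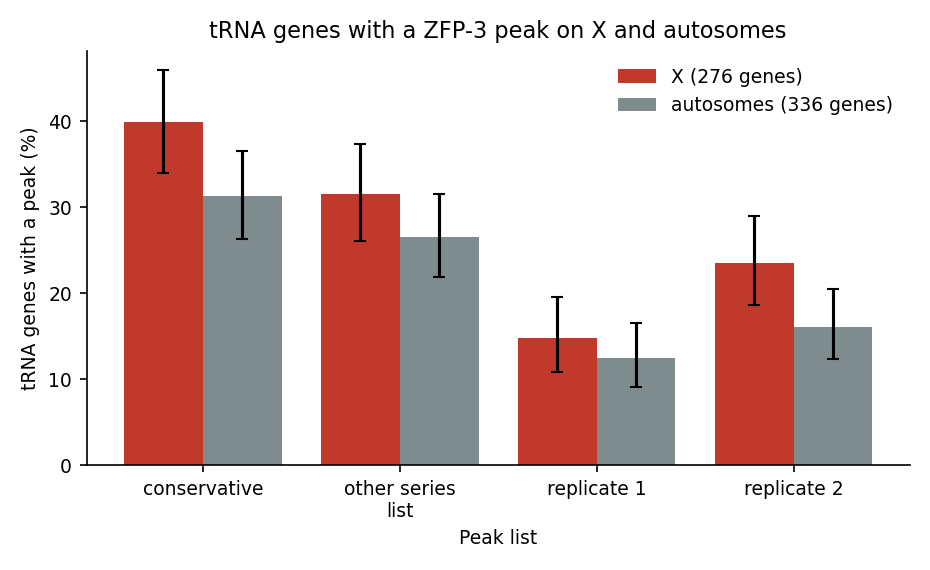
Percent of tRNA genes with a peak (y, from 0) on X (276 genes) and on the autosomes (336 genes) in 4 peak lists (x); error bars are exact 95% intervals for counting error. X is higher in each list, 39.9 against 31.3% in the conservative list, and the intervals overlap.

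tRNA genes in clusters of 3 or more had a peak less often than lone genes or genes in pairs. Genes no more than 500 bp apart were joined into clusters, which gave 74 clusters with 170 genes. A peak was present at 7 of 48 genes in clusters of 3 or more (14.6%), against 49 of 122 genes in pairs (40.2%) and 159 of 442 lone genes (36%). The share for pairs is raised by peaks that count for both genes, since all 13 peaks within 100 bp of 2 genes lay at pairs. All clusters of 3 or more are on X, and among lone genes 77 of 168 on X (45.8%) and 82 of 274 on the autosomes (29.9%) had a peak. The median signal was 101 at the 44 peaks in clusters and 89.2 at the 160 at lone genes.

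The clusters named here were all those of 4 genes or more, picked for size after their values were seen. The largest, 6 histidine genes with 1 sequence at F28H6 (X, 14135045 to 14137010), had no peak. From 0 to 85.1% of the stretches of 50 bases in and around these 6 genes occur once in the genome. At 5 glutamine genes in an intron of ajm-1, which encodes a protein of epithelial junctions, 1 had a peak. At 5 genes in an intron of K01A12.3 the cysteine gene K01A12.t4 had one. Of 2 clusters of 4 genes, the one at F22F1 had a peak at 2, the methionine gene F22F1.t6 (77.4) and the isoleucine gene F22F1.t7 (76.3). The 4 tyrosine genes at R11 share 1 sequence, with 83.6 to 86.0% of stretches unique, and R11.t1 alone had a peak.

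Uniqueness of sequence, which limits where short reads can be placed, moved with the share of genes with a peak at its low end. Of the 36 tRNA genes with under 75% unique stretches within 150 bp, 1 had a peak, and among the other 576 genes 214 did (37.2%). Its part in the results on clusters and amino acids was not tested. Over all genes the median share of unique stretches was 89.2% for genes with a peak and 89.5% for genes without. Among genes with at least 75% unique stretches, 41.8% of those on X and 33.2% of those on the autosomes had a peak.

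At 13 of the 204 peaks the summit lay within 100 bp of 2 tRNA genes, which were divergent at 6, tandem at 4 and convergent at 3. Their median signal was 108, against 90.4 at peaks with 1 gene. The strongest were at F15G9.t1 and F15G9.t2 (225), T23F1.t1 and T23F1.t2 (170) and the divergent glycine genes T10B10.t2 and T10B10.t1, 118 bp apart (152).

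Many tRNA genes outside the 215 had a peak in the lists before thresholding. Of the 397 genes without a peak in the conservative list, 191 (48.1%) had a ranked peak of replicate 1 within 100 bp and 212 (53.4%) one of replicate 2. These lists are long, and 11.5% of the genome for replicate 1 and 11.7% for replicate 2 lay within the same reach of a summit. Among the same 397 genes, 5 had a peak in the thresholded list of replicate 1, 17 in that of replicate 2 and 8 in the second series list. Lack of a peak in the conservative list therefore does not show that ZFP-3 was absent.

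Genes for the machinery that transcribes and charges tRNAs had a peak at shares whose exact intervals include that of all protein-coding genes, 4.45%. Of 17 genes for RNA polymerase III subunits and factors, 2 had a summit in the promoter window (11.8%, exact interval 1.46 to 36.4%). These were rpac-19, a subunit shared by polymerases I and III (signal 107, summit 22 bp upstream), and tbp-1, the TATA binding protein (72.1, summit 110 bp downstream). Of 32 aminoacyl-tRNA synthetase genes, which encode the enzymes that load tRNAs, 3 had one (9.38%, exact interval 1.98 to 25%), namely ears-2 (79.3), tars-1 (71.4) and fars-3 (54.2). None of these 5 peaks lay at a tRNA gene or overlapped a thresholded peak of both replicates.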

How the data were processed

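Chromatin immunoprecipitation and sequencing had been done on 2 biological replicates of 1 group. The deposited peak lists are on ce11, and per the notes deposited with them each came from the alignments of 1 library or of both. The signal of a peak is the authors' deposited value, and the score is the authors' deposited scaled value of the irreproducible discovery rate (IDR), at least 830 in the thresholded lists. The sources used here do not give the aligner, the peak caller, the signal scale or the depth. Replicates were compared through their own lists, by overlap of at least 1 bp or summits within 100 bp.

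Genes came from Ensembl release 115 (WBcel235), and amino acids and sequence from RefSeq. The members and lists were chosen with earlier results of these data known. Shares have exact Clopper-Pearson 95% intervals, which cover counting error only. No p-value was computed, since there was 1 group and peaks or genes are not replicates of it. Named genes were those at the 20 strongest and 3 weakest peaks, at the strongest of each amino acid, at 3 peaks with 2 genes, at the 3 widest replicate ratios each way and at 3 summits on each side of the limit, with host genes, and the listed machinery genes with a peak. Outside that rule, M02F4.t2, F46G11.t1, F28H6.t2, C43G2.t1 and the clusters of 4 or more genes were named after their values were seen. Assignment of summits and anticodons was tested on simulated data. Python 3.11.15, pandas 2.3.3, numpy 2.4.6, SciPy 1.17.1 and matplotlib 3.10.9 were used. Alternatives were other distances, lists, clusters and motif rules. A check on unique sequence, the machinery genes under other lists and the weak summits were added after seeing the data.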

Additional observations from a re-analysis of the deposited data

How the results depend on the processing

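Depth is unknown, so the number of sites each library could yield cannot be judged. With summits inside the gene only, peaks and genes numbered 122 each, 22.46% of genes on X and 17.86% on autosomes had one, 52.46% of peaks were intronic and the median position was 30 bp. Within 500 bp the X share was 50%. In the other list of the series the X share was 31.52% and the median signal percentile 51.61, against 59.88 in the conservative list (50 is the middle). Among the 1005 strongest peaks of the list 133 peaks remained, with 25.72% on X, 21.73% on autosomes, a percentile of 37.61 within them and 1 machinery gene in place of 5. Without replicate 1 or without replicate 2, peaks numbered 77 to 113, genes 83 to 119, X shares ran from 14.86 to 23.55%, autosomal shares from 12.5 to 16.07%, percentiles from 43.5 to 45.66, below the middle, positions from 18 to 20 bp and machinery genes from 0 to 3. The lowest count of peaks came from replicate 1 alone, and that of machinery genes from replicate 2 alone. With 1 mismatch the B box was in 100% of genes with a peak and 99.75% without; runs of 5 T followed 82.33% with and 82.37% without. The other 57 recomputed values stayed within 1.5 times the count, the exact interval or 1 SD of the value in the conservative list, a wide tolerance: genes with a peak ran from 144 to 252 and peaks in clusters from 31 to 62. The X share exceeded the autosomal share in each list and at each distance tried. The cause of a change was not tested. No paired analysis was possible because there was 1 group.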

Other observations

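Genes with a peak lay nearer to a protein-coding 5′ end than those without, with little difference on X. The median distance to the nearest protein-coding 5′ end was 1325 bp for the 215 genes with a peak and 2025 bp for the 397 without. On the autosomes it was 1070 bp with a peak and 2025 bp without, and on X 1942 bp with and 2011 bp without. Within 1000 bp of such an end lay 82 genes with a peak (38.1%) and 103 without (25.9%). The 50 bp upstream of genes on X had a median of 44% G and C with a peak and 38% without, and of 46% with and 44% without on the autosomes.

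Of 52 ranked peaks of the series with a score of at least 830 that are absent from the conservative list, 1 lay at a tRNA gene, the leucine gene C43G2.t1 on IV, with a signal of 59.6.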
